A study of Saccharomyces cerevisiae with 21 samples.

Results

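The ATG genes of budding yeast, Saccharomyces cerevisiae, were followed through a wine fermentation of 15 days. A gene was a member if its symbol was ATG followed by a number, and each was read from the probe set annotated to it alone with the highest mean over all 21 arrays. The RefSeq gene table held 37 such symbols, 36 of which were measured among 5656 genes. ATG44 had no probe set of its own and was not analysed here. Total RNA was hybridised to Affymetrix arrays at 1, 12, 24, 48, 60, 120 and 340 h, with 3 arrays at each time from biological triplicates. The 5 times from 24 to 340 h form the main series, over which ethanol went from about 0.5% (24 h) through 2% (48 h), 3.5% (60 h) and 7% (120 h) to 10% (340 h). The groups differ by the age of the culture alone, as far as the labels say, with no agent, allele or treatment named for any of them, and the strain and medium were not given in the sources used here. Time, ethanol and everything else that changes in an ageing culture cannot be told apart in this design.

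Autophagy carries cytoplasm and organelles to the vacuole, the yeast counterpart of the lysosome, inside a vesicle with a double membrane called the autophagosome. The Atg1 kinase complex starts the process, vesicles that carry Atg9 deliver membrane, a phosphatidylinositol 3-kinase complex marks the site, and a pair of ubiquitin-like proteins, Atg8 and Atg12, is attached to lipid and protein as the membrane grows. Receptor proteins tie chosen cargo, such as mitochondria, peroxisomes or vacuolar enzymes, to Atg8 and to the scaffold Atg11. In yeast the pathway is known for its induction by starvation for nitrogen or carbon and by inhibition of the kinase complex TORC1, and part of that induction is at the level of transcription. An mRNA level is not a measure of autophagic flux.

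Values are log2 expression after robust multi-array averaging, so a difference of 1 is a 2-fold change, and differences are given ± standard error from limma with p-values adjusted by Benjamini-Hochberg over all 5656 genes. "Rose" and "fell" are used for an adjusted p under 0.05, and "passed" likewise, on the deposited scale unless the other is named. The scale is relative: it gives each array nearly the same distribution, and the array medians lay between 5.92 and 6.05. A second scale, centred on 5 genes chosen as references (ALG9, TAF10, TFC1, UBC6 and TRS65), moved every change by the same amount within a comparison. Against 24 h this amount was -0.11 (48 h), 0.11 (60 h), 0.51 (120 h) and 1.05 (340 h), and it was -0.24 at 12 h against 1 h. The second scale also carried the references' own scatter into every gene, so that the standard error of ATG1 at 48 h grew from 0.31 to 0.38. The references were themselves not level on the deposited scale, since TAF10 (-1.60), TRS65 (-1.04) and ALG9 (-0.60) fell between 24 and 340 h. The calls on both scales are therefore given. In bulk RNA, fewer expressing cells and less RNA per cell cannot be told apart. Replicate 3 of 24 h stood apart, with a mean correlation of 0.9598 to the other 24 h arrays, against 0.9736 to 0.991 for all other arrays with those of their own time. All comparisons against 24 h use it, and they share the same 3 arrays, so their calls are not independent of each other.

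Over the whole course 31 of the 36 ATG genes changed by limma's moderated F test over 7 times, beside 89.2% of all genes, and 32 changed without 24 h replicate 3. The 5 that did not pass were ATG5, ATG12, ATG16, ATG23 and ATG29, with adjusted p-values from 0.0731 to 0.792. On the deposited scale the highest mean was at 60 h for 9 genes, at 120 h for 10 and at 340 h for 10, and at an earlier time for the other 7. The lowest mean was at 1 h for 18 genes and at 24 h for 8. ATG1 had the widest span between its lowest and highest time means, 3.82, followed by ATG39 with 2.99, ATG19 with 2.83, ATG13 with 2.71 and ATG8 with 2.65. At all 7 times 6 members, ATG4, ATG9, ATG16, ATG17, ATG23 and ATG29, had means below 5, in the dim part of the arrays' range of 2.01 to 14.1.

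**Figure D1:**
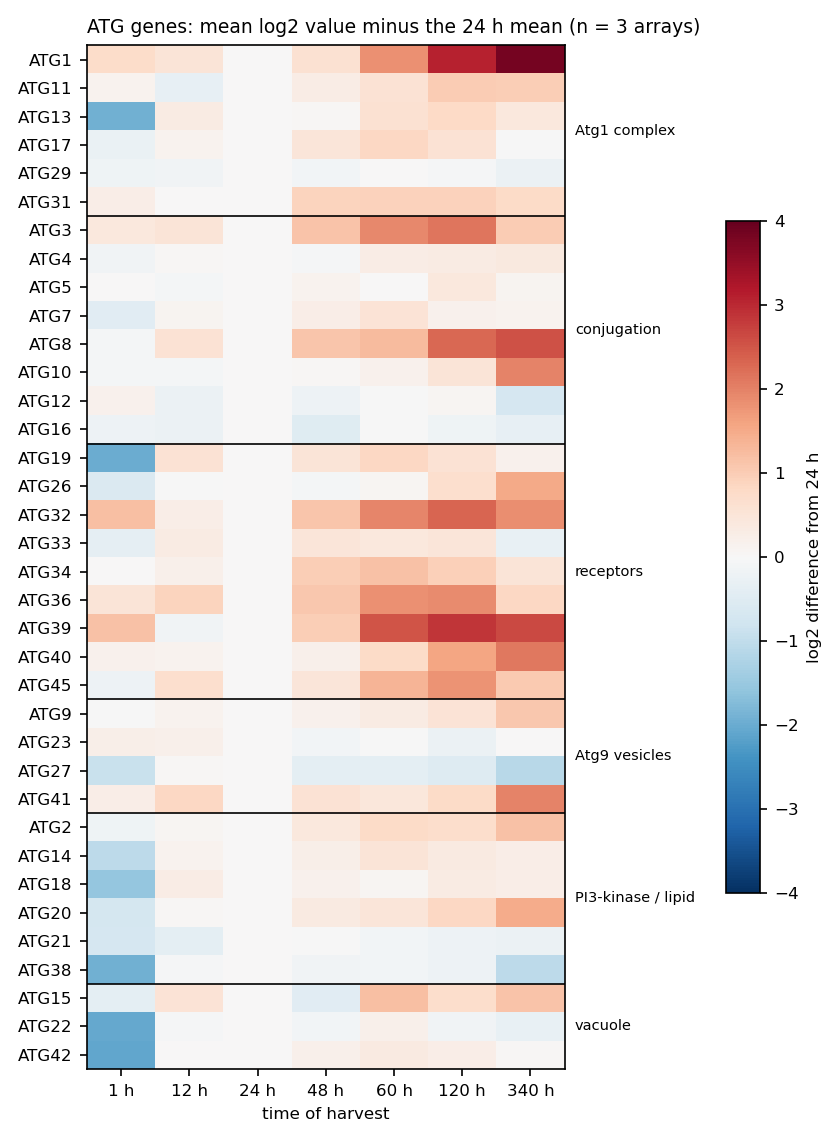
Mean log2 expression of each of 36 ATG genes at each of 7 times minus its own mean at 24 h, with genes in rows ordered by role and times in columns. The late columns are warm for ATG1, ATG8 and most cargo receptors, and the 1 h column is cold for the lipid-binding and vacuolar genes.

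Against 24 h, rises outnumbered falls among the ATG genes at each later time. At 48 h 9 rose and 0 fell, beside 12.8% of all genes higher and 8.42% lower (21.2% in either direction). At 60 h 17 rose and 0 fell, beside 22.6% higher and 20.8% lower (43.4% in either direction). The count was 20 up and 1 down at 120 h, beside 26.6% of all genes in each direction (53.2% in all), and 18 up and 3 down at 340 h, beside 27.8% higher and 36% lower (63.8% in all). As shares of the 36 genes, rises made up 25, 47.2, 55.6 and 50% at these 4 times. The median change of the ATG genes was 0.21, 0.51, 0.58 and 0.46, beside -0.02, 0.01, 0.01 and -0.13 over all genes. At an unadjusted limma p under 0.05, 2 genes were lower at 48 h (ATG16 and ATG27) and 1 at 60 h (ATG27), and the share of all genes at that threshold was not taken on this scale. Without 24 h replicate 3 the counts were 11 up at 48 h, 17 up at 60 h, 18 up and 1 down at 120 h, and 18 up and 3 down at 340 h.

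Centred on the reference genes, 1 ATG gene rose at 48 h, beside 3.48% of all genes higher and 3.54% lower on that scale, and 11 rose at 60 h, beside 15.4% higher and 7.5% lower. The rises then came to 25 at 120 h, beside 38% of all genes higher and 7.96% lower, and to 30 at 340 h, beside 58.7% higher and 7.04% lower. By limma 0 ATG genes fell at these times on this scale, and 0 were lower at an unadjusted p under 0.05. Of all 5656 genes 636, 699, 551 and 447 were lower at that threshold at 48, 60, 120 and 340 h. The ATG shares were 2.78, 30.6, 69.4 and 83.3%, and the ATG medians of 0.09, 0.61, 1.09 and 1.51 stood beside medians of -0.13, 0.11, 0.52 and 0.93 over all genes on this scale. ATG3 was the 1 gene whose 48 h call held on both scales. All 11 rises called at 60 h on the reference scale, and 20 and 18 of those at 120 and 340 h, were also called on the deposited scale. At 60 h the rises lost on the reference scale were those of ATG2, ATG11, ATG13, ATG14, ATG19 and ATG20. Their changes were larger there, 0.59 to 0.94, but so were their standard errors, 0.24 to 0.37. None of the 3 falls at 340 h held on the reference scale. The reference scale added rises that the deposited scale does not show, those of ATG4, ATG7, ATG10, ATG14 and ATG15 at 120 h and those of 12 genes at 340 h, namely ATG4, ATG5, ATG7, ATG13, ATG14, ATG17, ATG18, ATG19, ATG21, ATG22, ATG23 and ATG42.

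**Figure D2:**
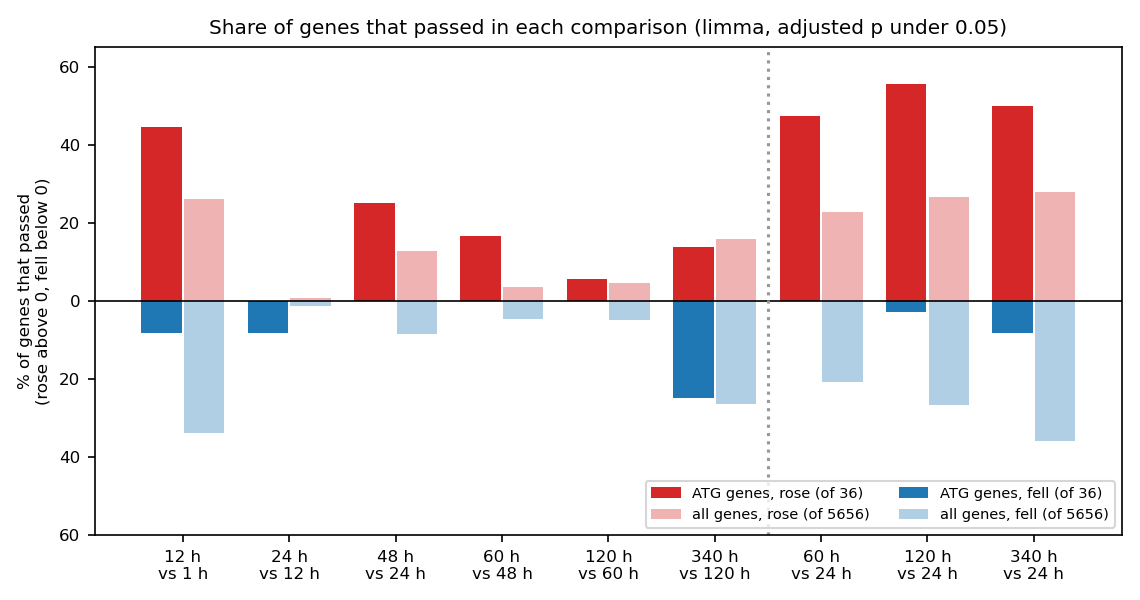
Percent of the 36 ATG genes and of all 5656 genes that rose (above 0) or fell (below 0) in 9 comparisons, at an adjusted p under 0.05 on the deposited scale. Rises make up 47.2% of ATG genes and 22.6% of all genes at 60 h against 24 h, and 25% of ATG genes fell between 120 and 340 h, beside 26.6% of all genes.

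Neighbouring times divided this course into steps. From 24 to 48 h ATG3, ATG8, ATG31, ATG32, ATG34, ATG36, ATG39, ATG41 and ATG45 rose. From 48 to 60 h 6 rose and 0 fell (ATG1, ATG15, ATG32, ATG36, ATG39 and ATG45, of which ATG15 and ATG39 held on the reference scale), beside 3.48% of all genes higher and 4.6% lower (8.08% in all), or 1.96% and 0.212% on the reference scale. ATG1, ATG32, ATG36 and ATG45 missed the threshold on the reference scale with larger changes, 1.45, 1.07, 0.98 and 1.11. From 60 to 120 h ATG1 and ATG8 rose and 0 fell by limma, beside 4.6% higher and 4.95% lower (9.55% in all). ATG26 rose too on the reference scale (1.00, adjusted p = 0.0241), making 3, beside 5.25% of all genes higher and 0.283% lower. Same-numbered arrays of these 2 times deviated together, and with the replicate number as a block ATG26 was called on the deposited scale as well (0.60, adjusted p = 0.0381, against 0.112 without the block). Both steps had 0 falls at an unadjusted limma p under 0.05 as well, on either scale. On the reference scale 88 and 61 of all 5656 genes were lower, so few that 0 falls does not set the ATG genes apart. On the deposited scale the share of all genes at that threshold was not taken. The rises numbered 3 in the step to 60 h without 48 h replicate 2 or 48 h replicate 3, and 1 and 0 in the step to 120 h without 120 h replicate 3 and without 60 h replicate 1. From 120 to 340 h 5 rose and 9 fell, beside 15.9% higher and 26.6% lower (42.4% in all), so the share of falling ATG genes, 25%, was near the background. On the reference scale, which moved the whole array by 0.54, the last step had 8 rises and 0 falls, beside 22.7% of all genes higher and 2.62% lower, and the ATG share of 22.2% was again near the background. At an unadjusted p under 0.05 on that scale 1 ATG gene was lower, beside 264 of all 5656 genes. A group of 12 genes (ATG1, ATG2, ATG3, ATG8, ATG11, ATG20, ATG31, ATG32, ATG34, ATG36, ATG39 and ATG45) rose at each of 60, 120 and 340 h against the shared 24 h arrays. On the reference scale ATG2, ATG11 and ATG20 did not rise at 60 h. The share of all genes that rose at all of these times was not taken, so this count has no background beside it.

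The Atg1 kinase complex and its scaffolds rose for 5 of 6 genes at 60 h and at 120 h, and for 3 of 6 at 340 h, with median changes of 0.71, 0.86 and 0.59. On the reference scale 3, 5 and 5 of 6 rose. At these times 22.6, 26.6 and 27.8% of all genes rose, or 15.4, 38 and 58.7% on the reference scale. These shares also stand beside the counts of the other roles below. ATG1, which encodes the kinase that starts autophagosome formation, read 4.73, 4.64 and 3.66 at 24 h. Its values were 5.13, 4.93 and 4.78 at 48 h and 5.98, 6.22 and 6.33 at 60 h. They reached 6.92, 7.44 and 7.93 at 120 h and 8.56, 7.48 and 8.46 at 340 h. Each time from 60 h on lay wholly above 24 h, and the 120 and 340 h arrays overlapped. ATG1 rose by 1.83 ± 0.31 at 60 h (adjusted p = 0.000117), 3.08 ± 0.31 at 120 h (adjusted p = 1.97e-07) and 3.82 ± 0.31 at 340 h (adjusted p = 7.51e-09), the largest ATG change at 120 and at 340 h. Replicate 3 of 24 h was its lowest array, and without it the changes were 1.49, 2.74 and 3.48. The single steps of ATG1 rested on fewer arrays. Its change from 48 to 60 h (1.23, adjusted p = 0.0187) missed the threshold on the reference scale and when any of 4 arrays was left out (48 h replicates 2 and 3, 60 h replicates 2 and 3; adjusted p up to 0.0802), and its change from 60 to 120 h (1.25, adjusted p = 0.0136) missed it without 120 h replicate 3 or 60 h replicate 1 (up to 0.0701).

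Its partners moved less. ATG11, the scaffold of selective autophagy, read 5.38, 5.76 and 5.76 at 24 h, 6.73, 6.67 and 6.54 at 120 h and 6.46, 6.81 and 6.56 at 340 h. The late arrays were all above the 24 h arrays, and ATG11 rose by 1.02 ± 0.17 at 120 h and 0.98 ± 0.17 at 340 h (adjusted p = 5.52e-05 and 5.2e-05). ATG31, a member of the scaffold complex with Atg17 and Atg29, rose at all 4 times by 0.77 to 0.93, at 48 h not on the reference scale. ATG17, the organising scaffold of starvation-induced autophagy, rose by 0.82 at 60 h, and its 340 h change was -0.01, or 1.04 on the reference scale, where it rose (adjusted p = 0.00169). ATG13, the regulatory partner of Atg1 that TORC1 phosphorylates, read 7.05, 7.61 and 7.54 at 24 h and 8.25, 7.90 and 7.87 at 60 h. The groups did not overlap and ATG13 rose by 0.61 ± 0.21 (adjusted p = 0.0243), but not without 60 h replicate 1 or 24 h replicate 1 (adjusted p up to 0.123). The 60 h rise of ATG11 (0.57) was likewise lost without 24 h replicate 1 (0.0536), and the 120 h rise of ATG17 (0.57) without 120 h replicate 1, 120 h replicate 2 or 24 h replicate 3 (up to 0.188). ATG29 stayed between 3.15 and 4.06 on all 21 arrays and passed in none of the 9 comparisons.

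**Figure D3:**
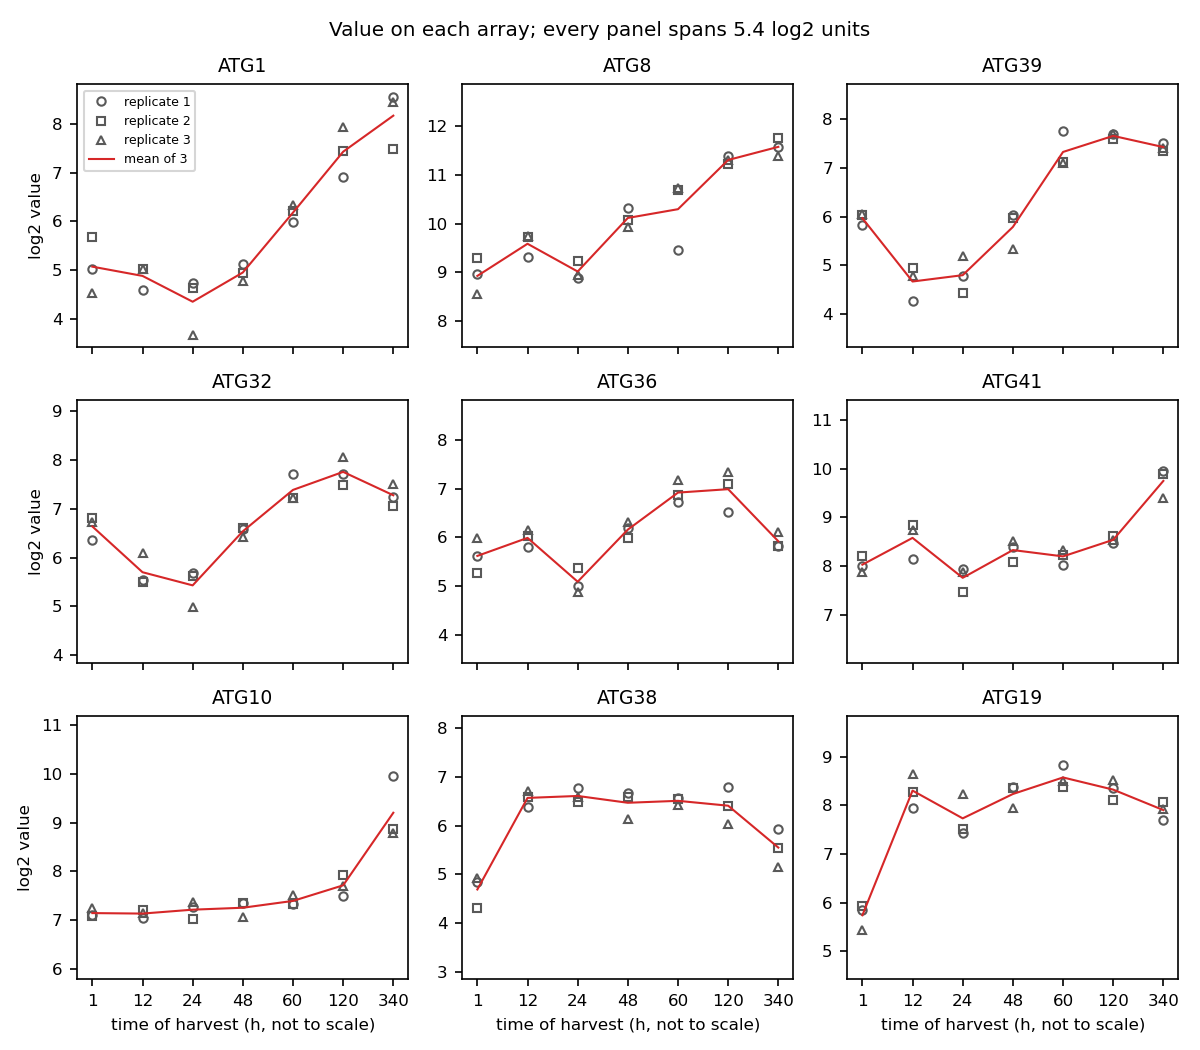
Log2 expression of 9 ATG genes on each of 21 arrays against time (evenly spaced, not to scale), 1 panel a gene with the same axis span in each, points for arrays and a line through the 3-array means. ATG1 and ATG8 are highest at 340 h, ATG39, ATG32 and ATG36 at 120 h, ATG10 and ATG41 stand up at 340 h, and ATG19 and ATG38 step up between 1 and 12 h.

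Among the 8 genes of the Atg8 and Atg12 conjugation systems, ATG8 and ATG3 accounted for the rises at 48 and 60 h, and 4 genes did not rise against 24 h on the deposited scale. On the reference scale 6 of the 8 rose at 120 h and at 340 h, and ATG12 and ATG16 rose at no time on either scale. ATG8 encodes the ubiquitin-like protein that is joined to phosphatidylethanolamine on the growing membrane. It read 8.89, 9.24 and 8.94 at 24 h, 10.33, 10.08 and 9.94 at 48 h and 9.47, 10.70 and 10.73 at 60 h. Its values were 11.39, 11.23 and 11.30 at 120 h and 11.58, 11.77 and 11.40 at 340 h. All 12 later arrays lay above the 24 h arrays, and 60 h replicate 1 was well below the other 60 h arrays. ATG8 rose by 1.09 ± 0.25 at 48 h (adjusted p = 0.00447), by 1.28 ± 0.25 at 60 h (0.000553), by 2.28 ± 0.25 at 120 h (7.04e-07) and by 2.56 ± 0.25 at 340 h (9.95e-08). The step from 60 to 120 h (1.00, adjusted p = 0.0166) was lost without that 60 h replicate 1 (0.073), and the 48 h rise was lost on the reference scale.

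ATG3, the E2 enzyme that hands Atg8 to its lipid, had an earlier peak. It read 5.37, 6.25 and 4.76 at 24 h, then 6.86, 6.77 and 6.15 at 48 h and 7.37, 7.32 and 7.45 at 60 h. It read 8.11, 7.57 and 7.15 at 120 h and 6.77, 6.49 and 6.13 at 340 h. The 60 and 120 h arrays were clear of 24 h, whereas the 48 and 340 h arrays overlapped it. ATG3 rose by 1.92 ± 0.31 at 60 h and 2.15 ± 0.31 at 120 h (adjusted p = 8.36e-05 and 1.46e-05), and between 120 and 340 h it fell by 1.14 ± 0.31 (0.00658), a fall that was lost on the reference scale. Its rise of 1.13 at 48 h was lost without 48 h replicate 1, 48 h replicate 2 or 24 h replicate 3 (adjusted p up to 0.0712), and that of 1.00 at 340 h without 24 h replicate 3 (0.0627).

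ATG10, the E2 enzyme that joins Atg12 to Atg5, was on the deposited scale the 1 gene of the 36 that rose at 340 h and at no earlier time against 24 h. On the reference scale it had already risen at 120 h (1.01, adjusted p = 0.0152). It read 7.26, 7.02 and 7.37 at 24 h, 7.50, 7.93 and 7.69 at 120 h and 9.95, 8.86 and 8.79 at 340 h. All 340 h arrays were above every earlier array. ATG10 rose by 1.98 ± 0.24 against 24 h (adjusted p = 1.1e-06) and by 1.49 ± 0.24 against 120 h (0.000103). ATG12, the ubiquitin-like protein of that reaction, read 5.58, 5.07 and 4.68 at 24 h and 4.26, 4.85 and 4.21 at 340 h. These groups overlapped. ATG12 fell by 0.67 ± 0.27 (adjusted p = 0.0389), a call that was lost without 340 h replicate 1 or 3 or 24 h replicate 1 or 2 (up to 0.195), and on the reference scale its change was 0.38 with the opposite sign (adjusted p = 0.246). ATG7, the E1 enzyme that activates both Atg8 and Atg12, read 5.59, 5.77 and 4.65 at 24 h, 5.89, 6.0 and 5.71 at 60 h and 5.56, 5.52 and 5.31 at 340 h. Its changes against 24 h, 0.13 to 0.53, did not pass on the deposited scale, whereas on the reference scale it rose at 120 h (0.67, adjusted p = 0.0363) and 340 h (1.18, 0.000416). ATG5 rose by 0.41 at 120 h at an adjusted p of 0.0499 that was lost without any of 5 arrays, all but 120 h replicate 1 (up to 0.24). ATG4, the protease that processes Atg8, and ATG16, which binds the Atg12-Atg5 conjugate, passed in none of the 9 comparisons on the deposited scale. ATG4 rose on the reference scale at 120 h (0.84, adjusted p = 0.0306) and 340 h (1.44, 0.000417).

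Of the 9 cargo receptors and organelle-specific factors, 5, 6, 8 and 7 rose at the 4 later times, with median changes of 0.50, 1.16, 1.59 and 1.06, and 0 fell. Of all genes 12.8, 22.6, 26.6 and 27.8% rose at these times. The receptor rises numbered 0, 5, 8 and 8 on the reference scale, beside 3.48, 15.4, 38 and 58.7% of all genes. ATG39, the receptor for the nuclear envelope and nearby endoplasmic reticulum, read 4.78, 4.44 and 5.19 at 24 h, 6.04, 5.98 and 5.34 at 48 h and 7.76, 7.12 and 7.11 at 60 h. It read 7.69, 7.59 and 7.69 at 120 h and 7.52, 7.35 and 7.42 at 340 h. No array from 48 h on overlapped 24 h. ATG39 rose by 0.98 ± 0.22 at 48 h (adjusted p = 0.00396), 2.53 ± 0.22 at 60 h (9.11e-08), 2.86 ± 0.22 at 120 h (1.21e-08) and 2.63 ± 0.22 at 340 h (1.57e-08). Its step from 48 to 60 h was 1.54 ± 0.22 (adjusted p = 0.000393) and held on the reference scale, where the 48 h rise did not.

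ATG32, the receptor for mitochondria, read 5.69, 5.63 and 4.99 at 24 h, 6.59, 6.61 and 6.42 at 48 h and 7.71, 7.23 and 7.23 at 60 h. It read 7.72, 7.49 and 8.07 at 120 h and 7.25, 7.05 and 7.52 at 340 h. The 24 h arrays were below all later ones. ATG32 rose by 1.10 ± 0.21 at 48 h (adjusted p = 0.00108, lost on the reference scale), 1.96 ± 0.21 at 60 h (1.08e-06), 2.33 ± 0.21 at 120 h (7.58e-08) and 1.84 ± 0.21 at 340 h (6.74e-07). Its step of 0.85 from 48 to 60 h was lost without 60 h replicate 1, 48 h replicate 2 or 48 h replicate 3 (adjusted p up to 0.111) and on the reference scale. ATG33, a mitochondrial outer membrane protein also needed for mitophagy, did not rise against 24 h at any time, with changes from -0.31 to 0.48. With the replicate number as a block its 120 h change of 0.46 passed (adjusted p = 0.0477, against 0.122 without the block).

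ATG36, the receptor for peroxisomes, read 5.0, 5.38 and 4.88 at 24 h and 6.19, 5.98 and 6.32 at 48 h. It read 6.72, 6.87 and 7.17 at 60 h, 6.53, 7.10 and 7.35 at 120 h and 5.82, 5.83 and 6.11 at 340 h. Every array from 48 h on was above 24 h. ATG36 rose by 1.07 ± 0.21 at 48 h (adjusted p = 0.00112, lost on the reference scale), 1.83 ± 0.21 at 60 h (1.68e-06), 1.90 ± 0.21 at 120 h (5.99e-07) and 0.83 ± 0.21 at 340 h (0.00189). Between 120 and 340 h it fell by 1.07 ± 0.21 (adjusted p = 0.000555) on the deposited scale, and this fall was lost on the reference scale. Its step from 48 to 60 h, 0.76, was lost on that scale too and without any single array of the 6 compared (adjusted p up to 0.126).

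ATG45, a receptor for glycogen, read 6.40, 6.40 and 6.51 at 24 h, 7.90, 7.87 and 7.64 at 60 h, 8.18, 8.29 and 8.28 at 120 h and 7.22, 7.63 and 7.63 at 340 h. The groups were separate at each of these times. ATG45 rose by 1.36 ± 0.15 at 60 h (adjusted p = 1.65e-06), 1.81 ± 0.15 at 120 h (3.05e-08) and 1.06 ± 0.15 at 340 h (1.03e-05). Its step from 48 to 60 h was 0.90 ± 0.15 (adjusted p = 0.0016) and its later fall from 120 to 340 h was 0.76 ± 0.15 (0.000843). Neither call held on the reference scale, where the step was larger (1.11, adjusted p = 0.0678) and the later change smaller (-0.22, 0.652). The 48 h rise of 0.47 was lost on that scale and without any of 5 arrays, all but 24 h replicate 3 (adjusted p up to 0.117).

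ATG40, the receptor for peripheral endoplasmic reticulum, read 3.90, 3.95 and 5.34 at 24 h, 5.58, 5.84 and 6.53 at 120 h and 6.14, 5.97 and 7.44 at 340 h. Replicate 3 of 24 h was well above the other 24 h arrays, and the late arrays lay above all of them. ATG40 rose by 1.59 ± 0.37 at 120 h and 2.12 ± 0.37 at 340 h (adjusted p = 0.00161 and 7.69e-05), and by 2.59 at 340 h without that array. ATG26, a sterol glucosyltransferase whose homologue acts in pexophagy in Komagataella, read 7.18, 7.23 and 6.78 at 24 h, 7.76, 7.77 and 7.64 at 120 h and 9.18, 8.42 and 8.17 at 340 h. The 3 times did not overlap. ATG26 rose by 1.53 ± 0.23 at 340 h (adjusted p = 1.44e-05) and by 0.87 ± 0.23 between 120 and 340 h (0.00581). Its 120 h rise of 0.66 was lost without 120 h replicate 1, 120 h replicate 2 or 24 h replicate 3 (adjusted p up to 0.0868).

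ATG19 and ATG34 are related receptors of the cytoplasm-to-vacuole targeting pathway, which delivers aminopeptidase I and alpha-mannosidase, and ATG34 acts on the mannosidase in starvation. ATG19 read 7.43, 7.52 and 8.24 at 24 h, 8.82, 8.38 and 8.49 at 60 h, 8.35, 8.10 and 8.51 at 120 h and 7.69, 8.07 and 7.93 at 340 h. The 60 h arrays lay above 24 h, and the 120 and 340 h arrays overlapped it. ATG19 rose by 0.84 ± 0.21 at 60 h (adjusted p = 0.00443) and by 0.59 ± 0.21 at 120 h (0.0281), and its 340 h change of 0.17 did not pass, but on the reference scale it rose by 1.22 (adjusted p = 0.00565). The 60 h call was lost on the reference scale, and the 120 h call without 120 h replicate 1, 120 h replicate 3, 24 h replicate 1 or 24 h replicate 2 (adjusted p up to 0.126). Both were lost when the gene's 2 probe sets were averaged, since the other probe set is dim, between 3.28 and 3.81, and changed by -0.51 at 60 h. ATG34 rose at all 4 times, by 0.98, 1.16, 0.96 and 0.50. Its 48 h rise was lost on the reference scale, and its 340 h rise without 340 h replicate 2, 24 h replicate 1 or 24 h replicate 2 (adjusted p up to 0.0941).

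The 4 genes of Atg9 vesicles split. ATG9 encodes the membrane protein of those vesicles, a lipid scramblase, and ATG41 a protein that binds Atg9. ATG9 read 3.84, 4.01 and 3.63 at 24 h, 4.31, 4.36 and 4.45 at 120 h and 4.90, 4.97 and 4.87 at 340 h. The 3 times were separate, in the dim range of the array. ATG9 rose by 0.55 ± 0.14 at 120 h and 1.09 ± 0.14 at 340 h (adjusted p = 0.0039 and 3.41e-06), and by 0.54 ± 0.14 between them (0.006). ATG41 read 7.94, 7.46 and 7.87 at 24 h, 8.48, 8.61 and 8.54 at 120 h and 9.95, 9.89 and 9.40 at 340 h. These times were separate too, and ATG41 rose by 0.79 ± 0.19 at 120 h, 1.99 ± 0.19 at 340 h and 1.20 ± 0.19 between them (adjusted p = 0.00165, 5e-08 and 7.59e-05). Its 48 h rise of 0.58 was lost on the reference scale and without 48 h replicate 1, 48 h replicate 3 or 24 h replicate 2 (adjusted p up to 0.151).

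ATG27, a membrane protein needed for the traffic of Atg9, went the other way on the deposited scale. It read 7.67, 7.42 and 7.53 at 24 h, 7.02, 7.02 and 7.01 at 120 h and 6.37, 6.74 and 6.23 at 340 h. Each of these times lay below the one before. ATG27 fell by 0.52 ± 0.17 at 120 h (adjusted p = 0.0134) and by 1.10 ± 0.17 at 340 h (1.61e-05), and neither fall held on the reference scale. The 120 h call was lost without 24 h replicate 1 (0.0519). ATG23, the peripheral partner of Atg27 in this traffic, stayed between 4.18 and 5.08 on all arrays and passed in none of the comparisons on the deposited scale, but rose by 1.05 at 340 h on the reference scale (adjusted p = 0.00309).

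The phosphatidylinositol 3-kinase subunits and the proteins that read its lipid product rose for 3 of 6 genes at 60 h and 2 of 6 at 120 and 340 h, or for 0, 3 and 5 of 6 on the reference scale. ATG2, the lipid transfer protein at the contact with the endoplasmic reticulum, rose by 0.77, 0.69 and 1.16 at these times. Its 60 h rise was lost on the reference scale, and its 120 h rise without 120 h replicate 3 or 24 h replicate 2 (adjusted p up to 0.0616). ATG20, a sorting nexin, read 3.93, 3.89 and 3.38 at 24 h, 4.59, 4.44 and 4.63 at 120 h and 5.30, 5.01 and 5.31 at 340 h. The 3 times were separate, and ATG20 rose by 0.82 ± 0.17 at 120 h, 1.48 ± 0.17 at 340 h and 0.66 ± 0.17 between them (adjusted p = 0.000591, 7.09e-07 and 0.0052). Its 60 h rise of 0.48 was lost without 24 h replicate 3 or any 60 h array (adjusted p up to 0.136) and on the reference scale.

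ATG14, which directs the kinase complex to autophagy, read 4.58, 4.66 and 4.45 at 24 h, 5.24, 5.22 and 4.82 at 60 h and 4.93, 5.02 and 4.53 at 340 h. Its 120 h mean was 4.92 (SD 0.16, n = 3). The 60 and 120 h arrays were clear of 24 h, and the 340 h arrays overlapped it. ATG14 rose by 0.53 ± 0.17 at 60 h (adjusted p = 0.0191), and its 120 h change of 0.36 did not pass (0.093). The 60 h call was lost on the reference scale and without 60 h replicate 1, 60 h replicate 2 or 24 h replicate 3 (adjusted p up to 0.0775). ATG14 rose on that scale at 120 h instead (0.87, adjusted p = 0.00664) and 340 h (1.32, 9.62e-05). ATG38, which holds that complex together, read 6.78, 6.48 and 6.58 at 24 h, 6.80, 6.40 and 6.03 at 120 h and 5.93, 5.55 and 5.16 at 340 h. The 340 h arrays lay below all arrays of both earlier times. ATG38 fell by 1.07 ± 0.22 against 24 h (adjusted p = 0.000323) and by 0.86 ± 0.22 against 120 h (0.00415), and neither fall held on the reference scale. ATG18 and ATG21, which bind the lipid product, changed by -0.23 to 0.33 against 24 h and passed at none of the 4 times on the deposited scale. Both rose at 340 h on the reference scale, by 1.32 and 0.82 (adjusted p = 0.00318 and 0.0208).

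Of the 3 genes that act inside the vacuole, ATG15 alone rose against 24 h on the deposited scale, and all 3 rose at 340 h on the reference scale. ATG15, the lipase that breaks down the inner vesicle, read 6.67, 5.97 and 6.06 at 24 h, 5.93, 5.73 and 5.66 at 48 h, 7.19, 7.57 and 7.57 at 60 h and 7.79, 6.82 and 7.47 at 340 h. The 60 and 340 h arrays were above 24 h, and all 48 h arrays were below it. ATG15 rose by 1.21 ± 0.29 at 60 h and 1.13 ± 0.29 at 340 h (adjusted p = 0.00291 and 0.00269), and its step from 48 to 60 h, 1.67 ± 0.29, was the largest of the 36 genes (0.00189). Its 3 probe sets changed alike at 60 h, by 1.43, 1.21 and 1.24, and less alike at 120 h, by 1.31, 0.70 and 0.82. The 120 h change of the probe set used, 0.70, did not pass (adjusted p = 0.0523), but on the reference scale it rose (1.22, 0.00778). ATG22, a vacuolar amino acid exporter, and ATG42, a vacuolar carboxypeptidase, changed by -0.32 to 0.34 against 24 h and did not pass on the deposited scale, but rose by 0.74 and 1.08 at 340 h on the reference scale (adjusted p = 0.0241 and 0.00683).

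**Figure D4:**
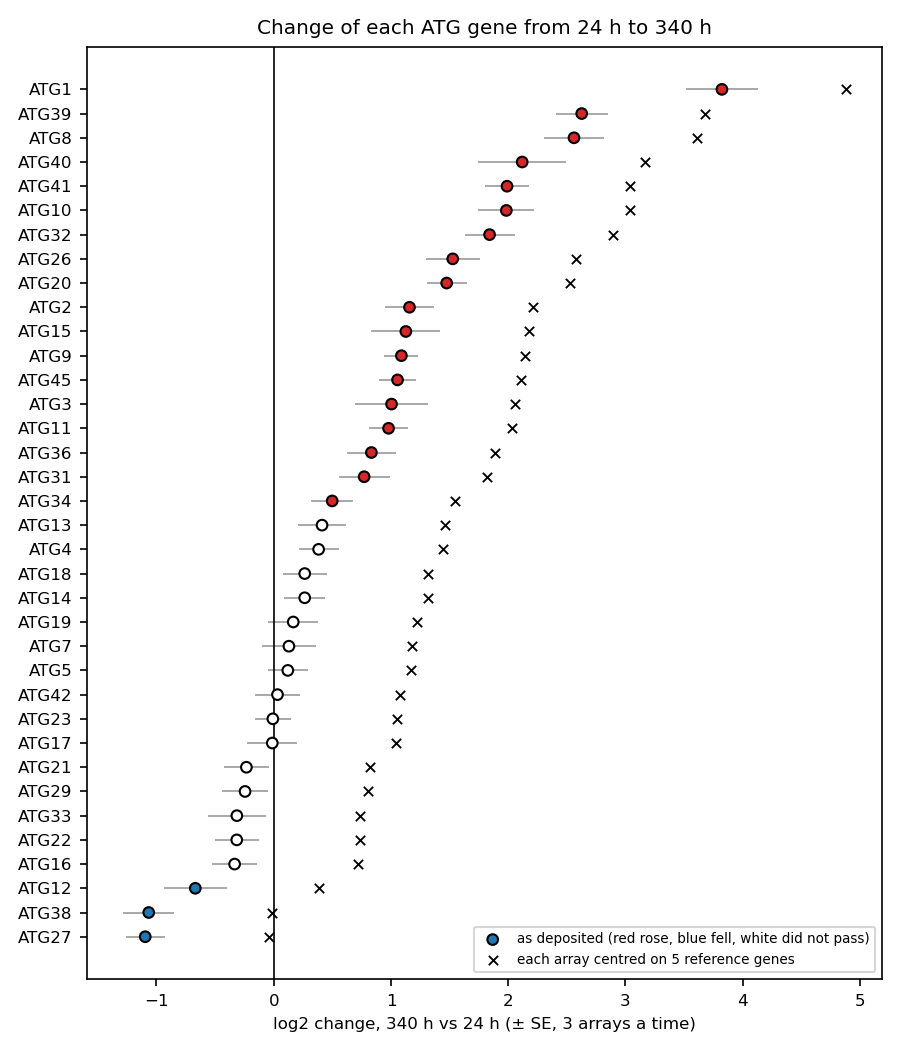
Log2 change of each of 36 ATG genes at 340 h against 24 h, as dots with standard error on the deposited scale (red rose, blue fell, white did not pass) and as crosses after centring each array on 5 reference genes. The centring adds 1.05 to each change, and the calls go from 18 rises and 3 falls to 30 rises and 0 falls, beside 27.8% of all genes higher on the deposited scale and 58.7% on the other.

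Between 1 and 12 h 16 ATG genes rose and 3 fell, beside 26% of all genes higher and 33.9% lower (60% in all), and on the reference scale 8 rose and 4 fell, beside 14.9% higher and 35.5% lower. All 3 vacuolar genes rose, and 4 of the 6 kinase subunits and lipid readers did, or 2 and 3 of them on the reference scale. The largest rise was that of ATG19, which read 5.84, 5.94 and 5.44 at 1 h and 7.95, 8.28 and 8.65 at 12 h and rose by 2.56 ± 0.22 (adjusted p = 1.73e-09). Its dim probe set changed by -0.17. ATG13 read 5.83, 5.86 and 4.77 at 1 h and 7.46, 7.95 and 7.76 at 12 h. The arrays were far apart, and ATG13 rose by 2.24 ± 0.25 (adjusted p = 7.12e-08).

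ATG42 read 4.72, 4.69 and 4.41 at 1 h and 6.15, 6.96 and 7.06 at 12 h and rose by 2.12 ± 0.21 (adjusted p = 1.9e-08). ATG22 read 6.19, 6.35 and 5.74 at 1 h and 7.64, 8.26 and 8.40 at 12 h and rose by 2.01 ± 0.21 (adjusted p = 3.34e-08). In both genes all 12 h arrays were above all 1 h arrays. ATG38 (1.88), ATG18 (1.85), ATG14 (1.18) and ATG27 (0.93) rose as well, and these 8 rises are the ones that held on the reference scale. ATG18, ATG22, ATG33, ATG42 and ATG7 rose in this step and did not pass against 24 h at any later time on the deposited scale. On the reference scale ATG33 passed neither in this step (0.445, adjusted p = 0.357) nor against 24 h. The other 4 rose at 340 h against 24 h on that scale.

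ATG39, ATG32 and ATG11 fell between 1 and 12 h on both scales, and ATG12 fell on the reference scale alone (-0.63, adjusted p = 0.0466). ATG39 read 5.83, 6.03 and 6.06 at 1 h and 4.27, 4.95 and 4.79 at 12 h and fell by 1.30 ± 0.22 (adjusted p = 2.67e-05). ATG32 read 6.36, 6.82 and 6.73 at 1 h and 5.53, 5.49 and 6.09 at 12 h and fell by 0.94 ± 0.22 (adjusted p = 0.000822). The groups did not overlap in either gene, both of which are receptors that later rose. ATG11 read 5.84, 5.75 and 5.71 at 1 h and 5.34, 5.25 and 5.33 at 12 h and fell by 0.46 ± 0.15 (adjusted p = 0.013). The smaller rises of ATG7 (0.57), ATG8 (0.66), ATG26 (0.57) and ATG41 (0.55) were each lost without 12 h replicate 2 or 12 h replicate 3 (highest adjusted p-values of 0.0813, 0.152, 0.145 and 0.111), without 1 h replicate 3 for ATG8, ATG26 and ATG41, and without 1 h replicate 1 for ATG8 and ATG41. On the reference scale these 4, and the rises of ATG15, ATG20, ATG33 and ATG45, did not pass.

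From 12 to 24 h 0 ATG genes rose and 3 fell, beside 0.796% of all genes higher and 1.27% lower (2.07% in all). On the reference scale limma called 0% of all genes. At an unadjusted p under 0.05 on that scale 0 ATG genes were higher and 4 lower, beside 209 and 200 of all 5656 genes. ATG36 read 5.80, 6.03 and 6.15 at 12 h and fell by 0.91 ± 0.21 (adjusted p = 0.033). ATG41 read 8.14, 8.85 and 8.75 at 12 h and fell by 0.82 ± 0.20 (0.033). ATG45 read 6.68, 7.37 and 7.27 at 12 h and fell by 0.67 ± 0.18 (0.0482). The 24 h arrays of each, given above, were below its 12 h arrays, but no call held on the reference scale or with every array left out in turn. A limma fit of only the compared arrays also lost these calls (adjusted p = 0.167, 0.2 and 0.225) and called 0 of all genes. ATG36 was lost without 24 h replicates 1 or 3 or 12 h replicates 2 or 3 (adjusted p up to 0.112), ATG41 without 24 h replicate 2 or 12 h replicates 2 or 3 (0.136), and ATG45 without any of 5 arrays, all but 12 h replicate 1 (0.211). The count of falls was 1 without any single 24 h array and 0 without 12 h replicate 2 or 12 h replicate 3. At an unadjusted limma p under 0.05 on the deposited scale, 1 gene was higher and 5 were lower, and the share of all genes there was not taken.

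In the last step, from 120 to 340 h, the genes that rose were ATG10, ATG41, ATG26, ATG20 and ATG9, all 5 on both scales, and ATG1, ATG2 and ATG15 rose on the reference scale alone (1.28, 1.01 and 0.96, adjusted p = 0.0175, 0.0484 and 0.0486). The 9 that fell on the deposited scale were ATG3, ATG12, ATG17, ATG27, ATG33, ATG34, ATG36, ATG38 and ATG45, and none of these falls held on the reference scale, where ATG34 changed by 0.07 with the opposite sign (adjusted p = 0.889). ATG33 read 7.08, 7.27 and 7.72 at 120 h and 6.14, 6.86 and 6.74 at 340 h, with no overlap, and fell by 0.78 ± 0.25 (adjusted p = 0.0169). Leaving out an array lost the falls of ATG12 and ATG17 (adjusted p up to 0.168 and 0.127, replicate 1 or 3 of 340 h or replicate 1 or 2 of 120 h for both), ATG27 (0.0538, 340 h replicate 3), ATG33 (0.103, 340 h replicate 1 or 120 h replicate 3) and ATG34 (0.111, any of the 6 arrays).

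The shares of all genes to set beside the pathway counts below are those given above, 22.6% higher and 20.8% lower at 60 h and 27.8% and 36% at 340 h. On the reference scale they are 15.4% and 7.5% at 60 h and 58.7% and 7.04% at 340 h. Of 13 partners of the Atg machinery, 0 rose and 2 fell at 60 h on the deposited scale, against 0 rises and 0 falls on the reference scale. At 340 h 1 rose and 4 fell on the deposited scale, against 9 rises and 0 falls on the reference scale. As shares at 340 h, 7.69% rose and 30.8% fell on the deposited scale, and 69.2% rose on the other. VPS30, which encodes Atg6 but has no ATG symbol in the annotation, and VPS34, the catalytic subunit of the phosphatidylinositol 3-kinase, changed by 0.04 and -0.11 at 340 h and did not pass (1.10 and 0.95 on the reference scale, adjusted p = 0.000613 and 0.0213). Between 1 and 12 h VPS30 and VPS34 rose by 0.74 and 1.20 (adjusted p = 0.000848 and 7.02e-07, the former not on the reference scale). HRR25, a kinase that phosphorylates cargo receptors, rose by 1.08 ± 0.20 at 340 h (adjusted p = 0.000128). ARP2, an actin nucleator that acts in Atg9 transport, fell by 1.42 ± 0.20 (adjusted p = 5.24e-06), a fall that was lost on the reference scale.

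Of 14 genes for fusion with the vacuole, 2 rose and 2 fell at 60 h, or 1 rose and 0 fell on the reference scale. At 340 h 1 rose and 6 fell, or 7 rose and 1 fell on the reference scale. The 340 h shares were 7.14 and 42.9% on the deposited scale and 50 and 7.14% on the other. The gene that fell on both scales was YPT7, the Rab GTPase of the vacuole, from 8.92 ± 0.10 (SD, n = 3) at 24 h to 6.87 ± 0.05 (SD, n = 3) at 340 h, a change of -2.05 ± 0.17 (adjusted p = 1.1e-08). MON1, part of the exchange factor for Ypt7, rose by 0.75 ± 0.17 (adjusted p = 0.000698). Of 4 cargo enzymes of the cytoplasm-to-vacuole pathway, all 4 rose between 1 and 12 h on both scales. Of all genes 26% rose in that step, or 14.9% on the reference scale. APE1, the aminopeptidase that Atg19 binds, went from 4.57 ± 0.27 (SD, n = 3) to 9.83 ± 0.24 (SD, n = 3), a rise of 5.25 ± 0.22 (adjusted p = 4.95e-15). AMS1, the alpha-mannosidase, rose by 2.35 ± 0.24 in that step and by 1.20 ± 0.19 at 340 h against 24 h (adjusted p = 2.2e-08 and 2.3e-05). Against 24 h 2, 3, 1 and 2 of the 4 enzymes rose at 48, 60, 120 and 340 h, and 0 fell. Of all genes 12.8, 22.6, 26.6 and 27.8% rose at these times. On the reference scale 0, 1, 2 and 3 enzymes rose, beside 3.48, 15.4, 38 and 58.7% of all genes.

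Of 15 genes known to act on ATG transcription or mRNA, 5 rose and 0 fell at 60 h, 8 rose and 0 fell at 120 h and 7 rose and 2 fell at 340 h, or 12 and 0 at 340 h on the reference scale. The rising shares were 33.3, 53.3 and 46.7%, beside 22.6, 26.6 and 27.8% of all genes. On the reference scale 4 rose at 60 h and 8 at 120 h, and 0 fell. The rising shares there were 26.7, 53.3 and 80% at 60, 120 and 340 h, beside 15.4, 38 and 58.7% of all genes. GAT1, a GATA activator of nitrogen-regulated genes, went from 6.98 ± 0.19 (SD, n = 3) at 24 h to 11.7 ± 0.29 (SD, n = 3) at 340 h, a rise of 4.70 ± 0.27 (adjusted p = 1.34e-10). GLN3, its partner activator, rose by 0.60 at 60 h and 0.78 at 120 h (the former not on the reference scale), and its 340 h change of 0.39 did not pass (1.45 on the reference scale, adjusted p = 0.000281). RIM15, a kinase of nutrient limitation that relieves repression by Ume6, rose by 1.49 ± 0.29 at 120 h and 2.76 ± 0.29 at 340 h (adjusted p = 0.000266 and 1.79e-07). RPH1, a repressor of ATG genes, also rose, by 1.76 ± 0.20 at 340 h (adjusted p = 4.92e-07). UME6, the DNA-binding repressor of ATG8, fell by 0.66 ± 0.19 at 340 h (adjusted p = 0.00608), but changed by 0.39 with the opposite sign on the reference scale. GCN4, the activator of amino acid synthesis genes, changed by 0.02 at 340 h and did not pass (1.07 on the reference scale, adjusted p = 0.00936).

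Of 17 genes of TORC1 and its outputs, 3 rose and 0 fell at 60 h, and 3 rose and 1 fell at 340 h. On the reference scale 2 rose and 0 fell at 60 h, and 16 rose and 0 fell at 340 h. The 17.6% that rose at 60 h and at 340 h was below the share of all genes at both times. The reference-scale counts stand beside 15.4% and 58.7% of all genes higher. TOR2, a kinase found in both TOR complexes, rose by 2.28 ± 0.18 at 340 h (adjusted p = 4.37e-09), and SCH9, the kinase that TORC1 phosphorylates, by 1.76 ± 0.20 (5.91e-07). GTR1, a GTPase that signals amino acids to TORC1, fell by 1.02 ± 0.18 at 340 h (adjusted p = 7.01e-05), but changed by 0.03 with the opposite sign on the reference scale. TOR1 fell by 0.59 ± 0.19 at 120 h (adjusted p = 0.0143, lost on the reference scale), and its 340 h change of 0.09 did not pass (1.15 on the reference scale, adjusted p = 0.00498).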

How the data were processed

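The authors deposited log2 values made by RMA with the affy package, per the submitters' processing notes, which give no version; RMA subtracts background, quantile-normalises the arrays together and summarises each probe set on the log2 scale. No scanner file was used here, so detection calls are not given and the number of arrays limits the precision. Of 9335 probe sets 60 were controls, 6504 matched 1 gene, 328 several and 2443 none in the platform annotation. Each of 5656 genes was taken from its brightest single-gene probe set, and none of the 36 ATG genes sat on a probe set type shared between near-identical genes.

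Comparisons used limma 3.58.1 in R 4.3.3 (lmFit, contrasts.fit, eBayes), two-sided, with Benjamini-Hochberg adjustment over 5656 genes and a threshold of 0.05. The 7 contrasts within 24 to 340 h were fitted on those 15 arrays, and the 12 h against 1 h and 24 h against 12 h contrasts and the F test on all 21. The procedure was tested on simulated data. No paired result is given as the main value: same-numbered arrays deviated together above 0.1 in every pair only for 120 h against 60 h (lowest correlation 0.164) and 340 h against 120 h (0.153).

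Members, roles and pathway lists were chosen with earlier results of these data known. ATG45 was added to the receptors after the lists were written. Per-array values are given for the 4 largest rises and falls of each comparison and for ATG1, ATG7, ATG8, ATG9, ATG11, ATG14, ATG19, ATG32, ATG39 and ATG41. From each pathway list up to 4 genes with the largest changes are named, with VPS30, VPS34, UME6, GLN3, GAT1, GCN4 and TOR1. Alternatives covered scaling, a filter at a time mean of 5, probe-set choice, eBayes trend and robust settings, which arrays entered the fit, the replicate block and leaving out each array.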

Additional observations from a re-analysis of the deposited data

How the results depend on the processing

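Scaling on the 5 reference genes moved the most results. It gave 1 ATG gene called at 48 h, 11 at 60 h, 12 at 12 h against 1 h, 0 at 24 h against 12 h, 2 at 60 h against 48 h and 8 at 340 h against 120 h, and it reversed ATG12 at 340 h against 24 h (0.38) and ATG34 at 340 h against 120 h (0.0744). Both reversals follow from the scale's construction, which adds the same value to every gene within a comparison, here 1.05 and 0.54. Calls lost with a larger change, such as those at 60 h against 24 h, went with larger standard errors. A fit of only the compared arrays called 0 at 24 h against 12 h, with fewer arrays. Leaving out each array in turn gave 0 to 3 ATG genes at 24 h against 12 h, 3 to 5 at 60 h against 48 h and 0 to 2 at 120 h against 60 h. With the replicate block the counts were 9, 19, 23 and 21 at 48, 60, 120 and 340 h against 24 h, 3 at 120 h against 60 h and 14 at 340 h against 120 h, all within 1.5 times the values without the block. Against 24 h the block added rises of ATG7 and ATG40 at 60 h (limma adjusted p = 0.0202 and 0.0407). It also added rises of ATG14 and ATG33 at 120 h (0.0324 and 0.0477). Same-numbered arrays deviated together in the comparisons of 120 h with 60 h and 340 h with 120 h, but the labels do not say what the replicate numbers mark. Over 112 calls and 1674 alternatives, 1514 kept the call, 158 lost it (40 of them on the reference genes) and 2 reversed. Dim members, with time means below 5, limit what a missed call shows.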
